A study of Mus musculus with 7 samples.

Results

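The cathepsins are proteases that work mainly inside lysosomes, and 10 of their genes were followed here in mouse myocardium: Ctsa, Ctsb, Ctsc, Ctsd, Ctsf, Ctsh, Ctsk, Ctsl, Ctss and Ctsz. They were chosen by name, with earlier results of these data known, and were found by gene symbol as 10 of the 56980 genes in the expression table. The study sequenced myocardial RNA to look for changes in angiogenesis-related genes 4 days after myocardial infarction (MI). Each of 7 libraries came from the myocardial tissue of 1 mouse. All mice were wild-type male C57BL/6J animals, bought at 8 weeks of age, and no transgene or drug was part of either group. In the 3 MI mice the left coronary artery had been ligated, and the 4 sham mice went through the surgery without ligation. The paper calls the MI tissue ischemic, but the sources used here do not say how it was cut from the heart, so the proportion of infarcted to spared muscle in each MI sample is unknown.

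A cathepsin is made as an inactive precursor, receives a mannose-6-phosphate tag in the Golgi, is carried to the lysosome by receptors that bind this tag, and becomes active at acid pH. Cathepsins B, C, F, H, K, L, S and Z use a cysteine in the active site, cathepsin D uses aspartate and cathepsin A uses serine. Macrophages and fibroblasts hold and can secrete several of them, and outside the cell some cut collagen and elastin, while cystatins block the cysteine enzymes. In injured heart muscle they are known for the digestion of engulfed cells and for matrix turnover.

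Values are FPKM, fragment numbers divided by gene length and by the size of the library, which allows levels of different genes to be compared per length. Tests were run with limma on log2(FPKM + 1) over the 11431 genes that reached an FPKM of 1 in 3 or more mice, with Benjamini-Hochberg adjustment over all of them, and all 10 cathepsins passed this filter. A log2 fold change on this scale is MI minus sham and understates the change of a low gene. For a single gene an exact permutation test of 3 mice against 4 has 35 splits and cannot give a p below 0.0571.

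The libraries held 19977714 to 23473545 fragments in sham mice and 21781021 to 23610871 in MI mice. The library labelled MI replicate 2 stood apart from the other MI libraries. Over all tested genes it correlated with the sham mice at 0.984 to 0.987, close to the 0.989 to 0.992 among sham mice. MI replicate 1 reached 0.878 to 0.881 with the sham mice and MI replicate 3 reached 0.903 to 0.906. Genes encoded in mitochondria took 55.7 to 57.1% of all FPKM in the sham mice and 58.5% in MI replicate 2, but 36.1% in MI replicate 1 and 38.2% in MI replicate 3. The tests of the cathepsins and the counts over gene lists are therefore given with and without MI replicate 2. This mouse was singled out by its expression, which lay near sham, and not by a label. The p-values without it thus depend on the outcome and describe the remaining mice only. The median tested gene lay 0.21 higher in MI on the log2 scale with all mice and 0.33 higher without MI replicate 2, and differences between cathepsins and this median gene are given below.

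In MI replicates 1 and 3 the levels of 9 cathepsins were 1.92 to 13.0 times the sham mean, with Ctsk, Ctss and Ctsz farthest from it, while Ctsf lay near its sham level in all 3 MI mice. With all 7 mice, 0 of the 10 genes were higher at an adjusted p under 0.05 by limma and 0 were lower, where 0.0175% of all tested genes were called higher and 0.00875% lower. At an unadjusted p under 0.05 with a log2 fold change over 0.5, 9 of the 10 were higher, against 17.8% of all tested genes, and 0 were lower. Every MI mouse lay above every sham mouse for 7 of the 10 genes, against 16.1% of all tested genes. Without MI replicate 2, 9 of the 10 rose at an adjusted p under 0.05, where 57.0% of all tested genes did and 14.7% fell, and in 9 both remaining MI mice lay above all sham mice, where 61.9% of all tested genes did. The median log2 fold change over the 10 genes was 1.00 with all mice and 1.45 without MI replicate 2.

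**Figure D1:**
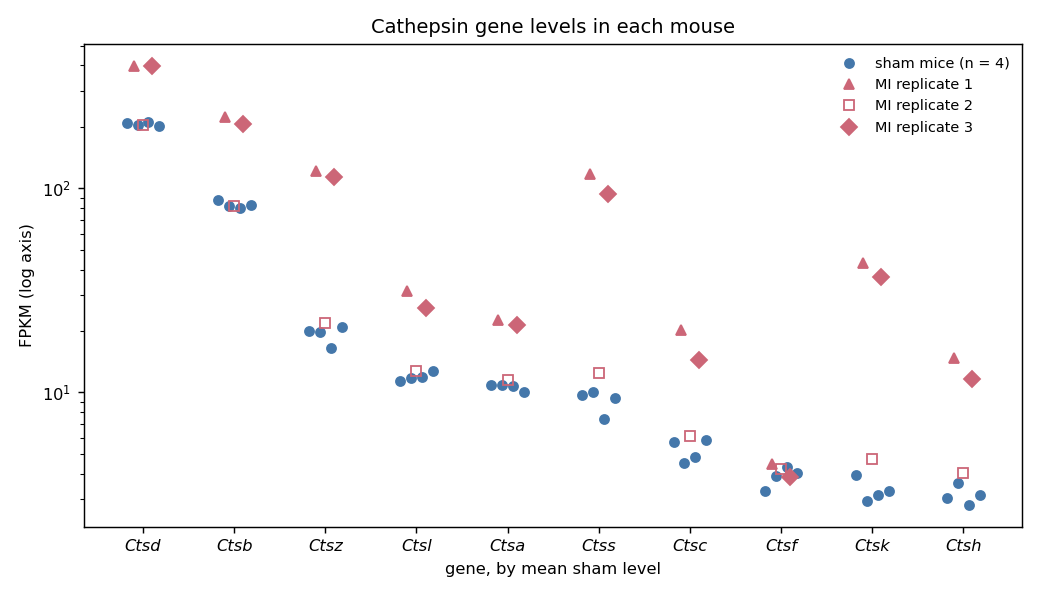
FPKM (log axis) of the 10 cathepsin genes in each mouse, with blue circles for the 4 sham mice and red marks for the 3 MI mice, the open square being MI replicate 2. MI replicates 1 and 3 lie above all sham mice for every gene but Ctsf, and the open square lies at or close above the sham circles.

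Ctsk encodes cathepsin K, a collagen-cutting enzyme best known from the osteoclast. Its gene covers chr3:95499256-95509362 (GRCm38, plus strand), and its exons overlap those of no other annotated gene. Ctsk stood at 3.92, 2.93, 3.16 and 3.28 FPKM in sham replicates 1 to 4, and at 43.1, 4.70 and 36.6 FPKM in MI replicates 1 to 3. All MI mice lay above all sham mice, but MI replicate 2 was 1.42 times the sham mean and the others 13.0 and 11.01 times. These levels rest on 96 to 133 fragments in each sham mouse, and on 1421, 161 and 1305 fragments in the MI mice. The log2 fold change of Ctsk was 2.30 ± 0.66 (SE, adjusted p = 0.108, limma) with all mice and 3.24 ± 0.11 (adjusted p = 2.16e-06, limma) without MI replicate 2.

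Ctss encodes cathepsin S, an elastin-cutting enzyme that also trims the invariant chain during antigen presentation and, unlike most of the family, keeps working at neutral pH. It lies next to Ctsk, at chr3:95526786-95556403, on the same strand with 17423 bases between the 2 genes. Ctss stood at 9.75, 10.03, 7.40 and 9.39 FPKM in the sham mice and at 117, 12.5 and 94.3 FPKM in MI replicates 1 to 3. The groups did not overlap, with MI replicate 2 at 1.37 times the sham mean and the other MI mice at 12.8 and 10.3 times. With all mice Ctss had a log2 fold change of 2.40 ± 0.70 (SE, adjusted p = 0.108, limma), and it was 3.39 ± 0.14 (adjusted p = 4.13e-06, limma) without MI replicate 2. Between these neighbours on chromosome 3 the levels had a Pearson r of 0.996 over the 7 mice, a description of mice that differ mainly in MI replicates 1 and 3.

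The sequences before the start sites of these neighbours are shown because Ctsk and Ctss had larger log2 fold changes than the other 8 genes. RefSeq promoter windows (GRCm38.p6, 250 bases before to 50 after a start) were matched by symbol for 8 of the 10 genes, in 9 windows. The letters GAGGAA, the purine-rich core bound by ETS factors such as PU.1 of myeloid cells, were searched on both strands. They were found in the windows of Ctsk, Ctss and Ctsc, which is 3 of 9 windows, and 28.3% of all 32851 windows hold them. In the Ctsk window they start at bases -233 and -58 from the start site, in Ctss at -164 and 1, and in Ctsc at -196 and -149. The 250 bases before each start are printed 5′ to 3′ on the plus strand, chr3:95498960-95499209 for Ctsk and chr3:95526536-95526785 for Ctss, with GAGGAA or its reverse complement in capitals.
Ctsk: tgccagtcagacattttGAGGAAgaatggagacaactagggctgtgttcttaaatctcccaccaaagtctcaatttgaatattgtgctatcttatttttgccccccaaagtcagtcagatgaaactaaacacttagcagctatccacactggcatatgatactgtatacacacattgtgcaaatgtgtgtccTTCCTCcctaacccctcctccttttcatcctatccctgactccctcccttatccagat
Ctss: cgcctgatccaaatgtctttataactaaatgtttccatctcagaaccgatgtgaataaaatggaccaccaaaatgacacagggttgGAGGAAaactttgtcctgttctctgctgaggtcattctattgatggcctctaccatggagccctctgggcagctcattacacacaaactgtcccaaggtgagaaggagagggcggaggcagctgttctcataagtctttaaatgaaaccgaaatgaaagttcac
The match is one of letters only.

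Ctsz encodes cathepsin Z, a carboxypeptidase that is abundant in myeloid cells. Its sham levels were 19.99, 19.7, 16.6 and 20.9 FPKM and its levels in MI replicates 1 to 3 were 122, 21.9 and 113 FPKM. MI replicate 2 lay just above the highest sham mouse, and the other MI mice were 6.31 and 5.87 times the sham mean. For Ctsz the log2 fold change was 1.76 ± 0.56 (SE, adjusted p = 0.108, limma), and 2.55 ± 0.10 (adjusted p = 3.61e-06, limma) without MI replicate 2. Its exons share 10 bases with Nelfcd on the other strand, and its promoter window held none of the 3 motifs searched.

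Ctsh and Ctsc encode peptidases that trim proteins from the amino end. Cathepsin H is an aminopeptidase, and cathepsin C (dipeptidyl peptidase I) activates the serine proteases of neutrophil, mast cell and lymphocyte granules. Ctsh stood at 3.04, 3.59, 2.81 and 3.13 FPKM in the sham mice and at 14.7, 4.03 and 11.7 FPKM in the MI mice. Ctsc stood at 5.73, 4.53, 4.83 and 5.86 FPKM in the sham mice and at 20.3, 6.13 and 14.4 FPKM in the MI mice. For both genes all MI mice lay above all sham mice, with MI replicate 2 at 1.28 times the sham mean for Ctsh and 1.17 times for Ctsc. The log2 fold change of Ctsh was 1.28 ± 0.36 (SE, adjusted p = 0.108, limma) and was 1.77 ± 0.11 (adjusted p = 1.9e-05, limma) without MI replicate 2. That of Ctsc was 1.10 ± 0.34 (SE, adjusted p = 0.108, limma), and 1.55 ± 0.15 (adjusted p = 0.000115, limma) without MI replicate 2. Ctsc differed most between the high MI mice, at 3.88 times the sham mean in MI replicate 1 and 2.75 times in MI replicate 3.

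Ctsb and Ctsl encode the widely expressed lysosomal endopeptidases cathepsin B and cathepsin L. Ctsb stood at 87.2, 82.3, 80.4 and 82.7 FPKM in the sham mice and at 224, 82.3 and 207 FPKM in the MI mice. MI replicate 2 lay within the sham range for this gene, at 0.990 times the sham mean, and the others were 2.69 and 2.48 times it. Ctsl stood at 11.4, 11.8, 11.9 and 12.7 FPKM in the sham mice and at 31.5, 12.8 and 25.8 FPKM in the MI mice. Here MI replicate 2 was above the highest sham mouse by less than the SD of the sham mice, which was 0.517 FPKM. Ctsb had a log2 fold change of 0.90 ± 0.33 (SE, adjusted p = 0.110, limma) and, without MI replicate 2, 1.36 ± 0.06 (adjusted p = 6.6e-06, limma). That of Ctsl was 0.82 ± 0.27 (SE, adjusted p = 0.108, limma) and, without MI replicate 2, 1.19 ± 0.09 (adjusted p = 3.8e-05, limma). Exons of Ctsb overlap the opposite-strand gene Fdft1 over 774 bases, and those of Ctsl overlap the antisense gene Gm47123 and the pseudogene Gm49230 over 2137 bases. Whether counting used the strand is not given in the sources used here, so reads in these stretches cannot be told apart.

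Ctsf encodes cathepsin F, another invariant-chain and lysosomal endopeptidase, and it was the only one of the 10 that did not pass either criterion with or without MI replicate 2. Its sham levels were 3.28, 3.89, 4.30 and 4.03 FPKM and its levels in MI replicates 1 to 3 were 4.46, 4.22 and 3.83 FPKM. The groups overlapped, and MI replicate 3 lay slightly below the sham mean at 0.989 times. The log2 fold change was 0.09 ± 0.11 (SE, adjusted p = 0.521, limma), and its sign turned under median log-ratio scaling (-0.13), quantile normalization (-0.19) and sample weights (-0.016). Each mouse gave 717 to 984 fragments of Ctsf, more than the 96 to 161 that Ctsk gave in the sham mice and MI replicate 2, so its value was not the least deeply counted.

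Ctsd encodes cathepsin D, the aspartic protease that starts the breakdown of many lysosomal proteins and processes other cathepsins. It was the most abundant of the family per length in every mouse, at 208, 205, 212 and 203 FPKM in sham and at 398, 204 and 397 FPKM in MI replicates 1 to 3. MI replicate 2 lay inside the sham range, and the other MI mice differed from each other by less than the sham SD of 3.84 FPKM, both at 1.92 times the sham mean. For Ctsd the log2 fold change was 0.62 ± 0.24 (SE, adjusted p = 0.115, limma), and 0.94 ± 0.05 (adjusted p = 1.11e-05, limma) without MI replicate 2. Its exons overlap the same-strand gene model Gm49369 over 808 bases, and how reads there were assigned is not given in the sources used here.

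Ctsa encodes cathepsin A, a serine carboxypeptidase that also shields the lysosomal neuraminidase and beta-galactosidase from degradation. It stood at 10.8, 10.9, 10.8 and 9.998 FPKM in the sham mice and at 22.7, 11.6 and 21.5 FPKM in the MI mice. All MI mice lay above all sham mice, with MI replicate 2 at 1.09 times the sham mean and the others at 2.14 and 2.02 times. Ctsa had a log2 fold change of 0.70 ± 0.22 (SE, adjusted p = 0.108, limma), and 0.99 ± 0.06 (adjusted p = 1.94e-05, limma) without MI replicate 2. Exons of Ctsa overlap the opposite-strand genes Neurl2 and Pltp over 819 bases.

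The promoters of Ctsd and Ctsa are shown because both held TCACGTGA, the longer of the motifs described here, and because their log2 fold changes were lower than those of Ctsk and Ctss. Their windows held CACGTG, the core of the motif through which TFEB and its relatives control lysosomal genes, which reads the same on both strands. It was found in 4 of the 9 windows, those of Ctsa, Ctsd, Ctsf and Ctsl, while 7.15% of all windows hold it. The longer TCACGTGA, which contains it, was found in 2 of the 9, against 0.974% of all windows. Of the 2 Ctsa start sites in RefSeq, the motif lies at 1, at bases -12 and 6. In Ctsd it lies at -245 and -98, in Ctsl at -236 and in Ctsf at -79. This match of letters says nothing about binding, and its part in the levels was not tested. The 250 bases before the start are printed 5′ to 3′ on the gene's strand, chr2:164833523-164833772 (plus) for Ctsa and chr7:142387828-142388077 (minus) for Ctsd, with CACGTG in capitals.
Ctsa: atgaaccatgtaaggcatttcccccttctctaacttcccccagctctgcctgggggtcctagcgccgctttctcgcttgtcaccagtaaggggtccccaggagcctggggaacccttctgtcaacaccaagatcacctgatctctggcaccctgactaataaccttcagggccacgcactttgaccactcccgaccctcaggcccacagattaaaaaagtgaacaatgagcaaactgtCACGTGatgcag
Ctsd: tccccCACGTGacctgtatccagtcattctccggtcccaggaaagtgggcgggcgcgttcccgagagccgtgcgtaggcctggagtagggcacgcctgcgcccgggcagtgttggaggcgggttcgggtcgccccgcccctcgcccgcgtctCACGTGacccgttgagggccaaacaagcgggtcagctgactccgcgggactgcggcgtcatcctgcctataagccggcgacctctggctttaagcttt
The sequences are from RefSeq.

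**Figure D2:**
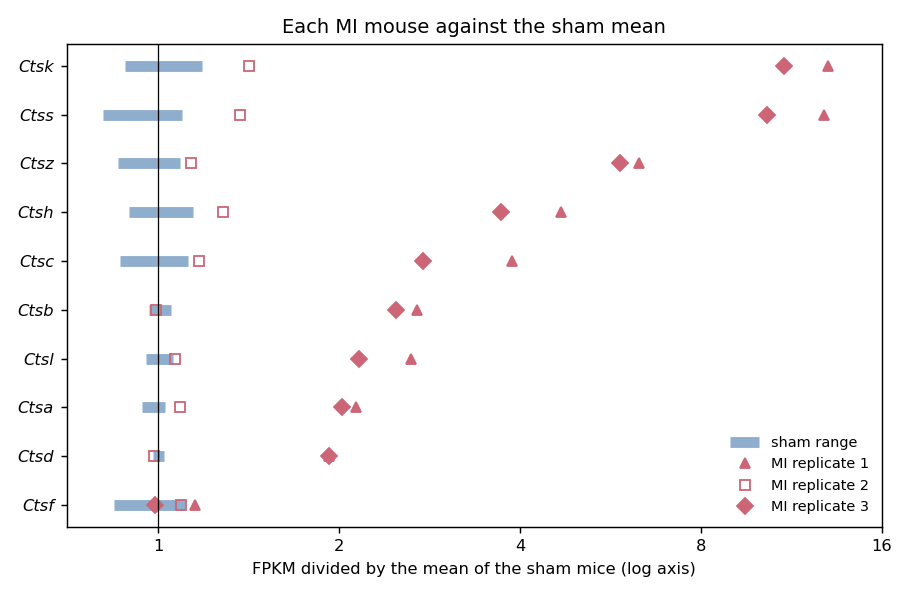
FPKM of each MI mouse divided by the mean of the 4 sham mice (log axis), with genes ordered by the mean of MI replicates 1 and 3 and blue bars for the range of the sham mice. The ratios of MI replicates 1 and 3 run from 0.989 for Ctsf to 13.0 for Ctsk, and those of MI replicate 2 from 0.986 for Ctsd to 1.42 for Ctsk.

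MI replicate 1 lay above MI replicate 3 for all 10 genes, by 1.00 to 1.41 times, and MI replicate 2 lay above the sham range for 7 and inside it for 3 (Ctsb, Ctsd and Ctsf). The median ratio to the sham mean was 3.29 in MI replicate 1, 1.11 in MI replicate 2 and 2.62 in MI replicate 3. The exact two-sided permutation p was 0.0571 for the 7 genes whose groups did not overlap, 0.171 for Ctsb, 0.229 for Ctsd and 0.457 for Ctsf. Measured from the median tested gene, the log2 fold changes were 2.19 for Ctss, 2.09 for Ctsk, 1.55 for Ctsz, 1.07 for Ctsh and 0.89 for Ctsc. They were 0.69 for Ctsb, 0.61 for Ctsl, 0.49 for Ctsa, 0.41 for Ctsd and -0.12 for Ctsf. With MI replicate 2 left out they were 3.07 for Ctss, 2.92 for Ctsk, 2.22 for Ctsz, 1.45 for Ctsh and 1.22 for Ctsc. The others were then at 1.04 for Ctsb, 0.86 for Ctsl, 0.66 for Ctsa, 0.61 for Ctsd and -0.25 for Ctsf. Ctss and Ctsk cannot be ranked, since with a pseudocount of 0.1 the log2 fold change was 2.53 for Ctsk and 2.50 for Ctss, and the ratio to the sham mean was higher for Ctsk in every MI mouse. Over the 16 alternative settings, the log2 fold change of Ctss stayed between 1.83 and 3.39 and that of Ctsk between 1.77 and 3.24.

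The order of the FPKM levels was not the same in both groups, and it depends on the gene lengths behind the deposited values, which differ from the GENCODE M21 exon lengths for 8 of the 10 genes. In sham hearts Ctsd had a mean of 207 ± 3.84 FPKM (SD, n = 4), followed by Ctsb at 83.1 ± 2.88, Ctsz at 19.3 ± 1.90, Ctsl at 11.96 ± 0.517 and Ctsa at 10.6 ± 0.427. Below them came Ctss at 9.14 ± 1.19, Ctsc at 5.24 ± 0.661, Ctsf at 3.88 ± 0.433, Ctsk at 3.32 ± 0.426 and Ctsh at 3.14 ± 0.329. Neighbours whose sham ranges overlapped were Ctsa and Ctss, Ctsf and Ctsk, and Ctsk and Ctsh. Within each sham mouse Ctsa lay above Ctss, and the order of the other pairs changed between mice. In MI replicates 1 and 3 the means put Ctss in the place after Ctsz, with overlapping ranges, and Ctsk in the place after Ctss, while Ctsf came last. With MI replicate 2 included every pair of neighbours in the MI order overlapped across mice. Within each MI mouse, however, Ctsd lay above Ctsb, Ctsb above Ctsz and Ctsz above Ctss. With levels recomputed on GENCODE M21 lengths, the sham order was Ctsd, Ctsb, Ctsa, Ctsz, Ctsl, Ctss, Ctsf, Ctsc, Ctsh and Ctsk, with Ctsa at 21.5 and Ctsz at 19.3. On these lengths Ctss came before Ctsz in MI replicates 1 and 3, at 155 and 125 against 122 and 113, and Ctsd was still highest in every mouse and Ctsf lowest in these 2.

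The make-up of the cathepsin FPKM, on the deposited lengths, differed between mice. The summed FPKM of the 10 genes was 354 to 363 in the sham mice and 997, 364 and 925 in MI replicates 1 to 3. Ctsd took 57.2 to 59.8% of this sum in the sham mice, and 39.9%, 56.0% and 43.0% in MI replicates 1 to 3. Ctsk, Ctss and Ctsz together took 7.67 to 9.47% in the sham mice, and 28.3%, 10.7% and 26.4% in the MI mice. Ctsb stayed near 22.3 to 24.0% in all mice.

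**Figure D3:**
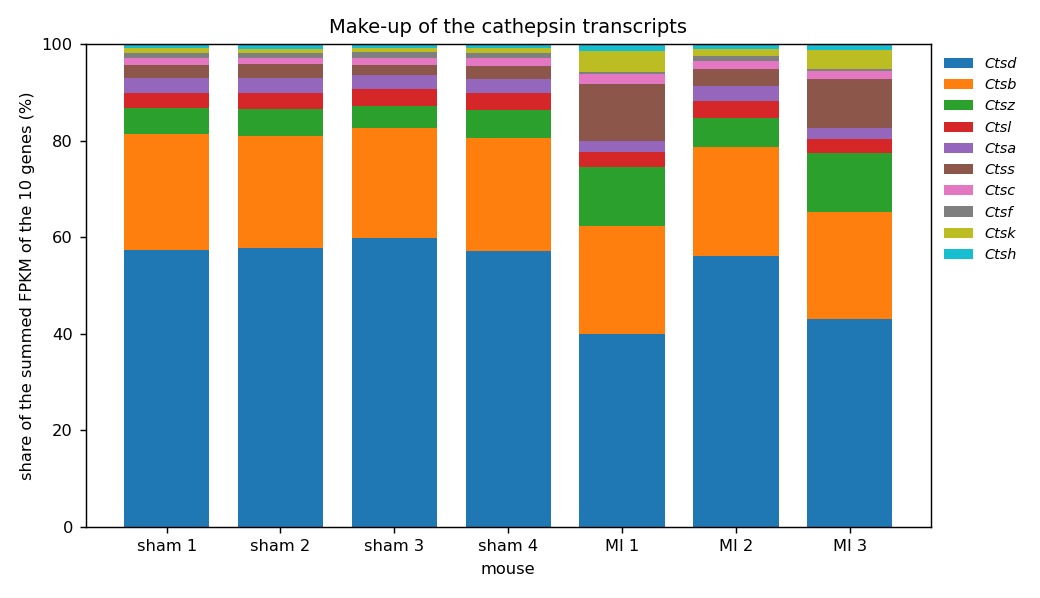
Share of each gene (%, stacked to 100) in the summed FPKM of the 10 cathepsin genes, 1 bar for each mouse. Ctsd takes 57.2 to 59.8% in the sham mice, 39.9% in MI replicate 1 and 43.0% in MI replicate 3, where Ctsz and Ctss are wider, and MI replicate 2 resembles the sham bars.

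To set the genes against each other within a mouse, the log2 level of each was taken minus the mean of the other 9, and the MI and sham mice were compared. By this measure Ctss was higher in MI by 1.34 and Ctsk by 1.22, and in both the MI mice lay above the sham mice without overlap. With a pseudocount of 0.1 these were 1.36 for Ctss and 1.40 for Ctsk, so their order turned. The MI minus sham difference was -0.64 for Ctsd, -0.42 for Ctsl and -0.33 for Ctsb, each without overlap. The exact permutation p of these 5 was 0.0571, the floor of this design, and 0.114 with Benjamini-Hochberg adjustment over the 10 comparisons, so none passed. The difference was 0.63 for Ctsz, 0.09 for Ctsh, -1.23 for Ctsf, -0.55 for Ctsa and -0.11 for Ctsc, with overlap between the groups in each. Without MI replicate 2 the differences were 1.88 for Ctss, 1.71 for Ctsk, 0.94 for Ctsz and 0.07 for Ctsh. They were -1.81 for Ctsf, -0.85 for Ctsd, -0.80 for Ctsa, -0.57 for Ctsl, -0.38 for Ctsb and -0.18 for Ctsc. With 2 mice against 4 the smallest exact permutation p is 0.133, which 8 of the 10 reached, all but Ctsh and Ctsc (0.4).

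Among 13 further cathepsin genes, 4 had any signal and 1 passed the filter. Ctso, the cysteine protease cathepsin O, had levels of 2.67, 2.48, 2.46 and 2.46 FPKM in the sham mice and of 6.10, 2.95 and 5.58 FPKM in the MI mice, without overlap. Its log2 fold change was 0.70 (SE 0.20, adjusted p = 0.108, limma) with all mice and 0.96 (adjusted p = 2.31e-05, limma) without MI replicate 2. Ctsw, the cathepsin of cytotoxic lymphocytes, was at 0.0229 to 0.107 FPKM in sham mice and at 0.909, 0.0454 and 0.556 FPKM in the MI mice. Ctsg, the serine protease of neutrophil granules, was listed at 0 in all sham mice and in MI replicate 2, at 0.260 FPKM in MI replicate 1 and at 0.0300 FPKM in MI replicate 3. Ctse, an aspartic protease of epithelial and immune cells, reached 0.152 FPKM in MI replicate 1. The remaining 9 genes, Ctsj, Ctsm, Ctsq, Ctsr, Cts3, Cts6, Cts7, Cts8 and Ctsll3, were listed at 0 in every mouse.

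The endogenous inhibitors of cysteine cathepsins were followed as a list of 13 genes, of which 4 passed the filter. At an unadjusted p under 0.05 with a log2 fold change over 0.5, 3 of the 4 were higher, beside 17.8% of all tested genes, and 0 were lower, and in none did all MI mice lie above all sham mice. Cst3 encodes cystatin C, the main secreted inhibitor. It stood at 175 to 219 FPKM in the sham mice and at 459, 183 and 523 FPKM in the MI mice, so on the deposited lengths its FPKM exceeded that of every cathepsin in MI replicates 1 and 3 and in sham replicate 4, and of every one but Ctsd in the other mice. Cstb, the cytosolic cystatin B, stood at 12.3 to 16.4 FPKM in sham and at 62.6, 11.6 and 44.2 FPKM in MI. The log2 fold change was 0.86 for Cst3 (SE 0.35, adjusted p = 0.118, limma) and 1.19 for Cstb (SE 0.50, adjusted p = 0.126, limma), and without MI replicate 2 they rose by 1.34 (adjusted p = 4.3e-05, limma) and 1.88 (adjusted p = 6.65e-05, limma). For both genes MI replicate 2 lay below the sham mean, at 0.943 and 0.853 times. Ctla2a and Ctla2b, homologues of the cathepsin propeptide, had log2 fold changes of 0.66 and 0.27, and of 0.97 and 0.50 without MI replicate 2. All 4 inhibitors rose without MI replicate 2 at an adjusted p under 0.05 by limma, as did 57.0% of all tested genes.

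Of the 10 genes of the mannose-6-phosphate tag and of sorting to the lysosome, 3 were higher by the unadjusted criterion, beside 17.8% of all tested genes, and 0 lower. Their median log2 fold change was 0.32, beside 0.21 over all tested genes, and it was 0.05 with median log-ratio scaling and 0.11 with quantile normalization, beside 0.0036 and -0.03. Gnptab and Gnptg, which encode the phosphotransferase that makes the tag, had log2 fold changes of 0.59 and 0.56. M6pr, a receptor that binds the tag, stood at 6.34 to 7.51 FPKM in sham and at 13.2, 6.88 and 11.8 FPKM in MI. Igf2r, the other receptor, stood at 26.8 to 30.6 FPKM in sham and at 40.9, 27.2 and 36.8 FPKM in MI, and its log2 fold change of 0.28 (SE 0.15, adjusted p = 0.173, limma) did not pass with all mice, but without MI replicate 2 Igf2r rose (0.45, adjusted p = 0.00158, limma). Scarb2, the carrier of beta-glucocerebrosidase, had a log2 fold change of 0.35, and Gga1, a coat adaptor of the receptors, one of 0.14, which were 0.49 and 0.23 without MI replicate 2. Without MI replicate 2, 7 of the 10 sorting genes rose at an adjusted p under 0.05 by limma, beside 57.0% of all tested genes, and the median was 0.47, beside 0.33 over all tested genes and 1.45 over the 10 cathepsins.

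Other lysosomal hydrolases and their activators were a list of 40 genes, of which 35 passed the filter. By the unadjusted criterion 21 of the 35 were higher and 0 lower, with a median log2 fold change of 0.71. This was 1.06 without MI replicate 2, 0.51 with median log-ratio scaling and 0.45 with quantile normalization. At an adjusted p under 0.05 by limma and without MI replicate 2, 31 rose and 1 fell. Over all tested genes the unadjusted criterion gave 17.8% higher and 4.80% lower, and without MI replicate 2 57.0% rose and 14.7% fell. Lgmn, the asparaginyl protease legumain that processes cathepsins B, H and L, stood at 20.9 to 29.0 FPKM in sham and at 82.6, 29.0 and 65.6 FPKM in MI. Hexa, a subunit of beta-hexosaminidase, stood at 24.5 to 25.6 FPKM in sham and at 82.4, 26.6 and 75.1 FPKM in MI. Of the partners that cathepsin A shields, Glb1 had a log2 fold change of 0.85 (SE 0.25, adjusted p = 0.108, limma) and Neu1 one of 0.42 (SE 0.20, adjusted p = 0.143, limma). Without MI replicate 2 both rose, Glb1 by 1.18 (adjusted p = 1.21e-05, limma) and Neu1 by 0.68 (adjusted p = 0.00019, limma). Psap, the sphingolipid activator precursor that cathepsin D cleaves, was the most abundant gene of the list and nearly level, at 352 to 359 FPKM in sham and at 382, 345 and 374 FPKM in MI. Smpd1, acid sphingomyelinase, lay lower in every MI mouse than in every sham mouse, at 33.4 to 35.3 FPKM in sham and at 23.5, 27.2 and 25.6 FPKM in MI. Its log2 fold change was -0.41 (SE 0.09, adjusted p = 0.108, limma), and it was the hydrolase that fell without MI replicate 2 (-0.45, adjusted p = 0.000498, limma).

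Membrane proteins of the lysosome gave 4 of 13 higher and 0 lower by the unadjusted criterion, beside 17.8% and 4.80% of all tested genes, with a median log2 fold change of 0.39, beside 0.21. This median was 0.61 without MI replicate 2, 0.15 with median log-ratio scaling and 0.17 with quantile normalization. Lamp1 stood at 143 to 145 FPKM in sham and at 238, 149 and 220 FPKM in MI, with Lamp2 at 15.98 to 16.6 in sham and 34.1, 18.4 and 30.8 FPKM in MI. Laptm4a stood at 155 to 165 FPKM in sham and at 251, 157 and 239 FPKM in MI. Cd63, a tetraspanin of late endosomes, had a log2 fold change of 1.23, against 0.69 for Lamp2, 0.46 for Lamp1 and 0.39 for Laptm4a. Leaving out MI replicate 2 gave 1.81 for Cd63, 0.95 for Lamp2, 0.67 for Lamp1 and 0.61 for Laptm4a. Subunits of the vacuolar ATPase, the proton pump that acidifies the lysosome, gave 6 of 17 higher and 0 lower, with a median of 0.34, which was 0.53 without MI replicate 2, 0.11 with median log-ratio scaling and 0.09 with quantile normalization. Without MI replicate 2, 11 of the 13 membrane genes and 12 of the 17 pump genes rose at an adjusted p under 0.05 by limma, beside 57.0% of all tested genes. Among its abundant subunits the log2 fold change was 0.14 for Atp6v1g1, 0.39 for Atp6v1f, 0.06 for Atp6v1e1 and 0.60 for Atp6v0d1, of which Atp6v0d1 passed the unadjusted criterion. Without MI replicate 2 these were 0.25, 0.61, 0.09 and 0.86.

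The transcription factors of the MiT/TFE family that act on lysosomal genes gave 0 of 2 higher and 0 lower by this criterion, beside 17.8% and 4.80% of all tested genes. Tfeb stood at 3.28, 2.31, 2.30 and 3.41 FPKM in the sham mice and at 2.76, 3.45 and 3.47 FPKM in the MI mice, with overlapping groups and a log2 fold change of 0.15 (SE 0.15, adjusted p = 0.423, limma), which was 0.11 (adjusted p = 0.527, limma) without MI replicate 2. Mitf stood at 4.91 to 5.89 FPKM in sham and at 2.92, 4.93 and 3.32 FPKM in MI. Its log2 fold change was -0.48 (SE 0.15, adjusted p = 0.108, limma), and without MI replicate 2 Mitf fell (-0.65, adjusted p = 0.000359, limma). Tfe3 did not pass the filter, at 0.783 to 0.864 FPKM in sham and at 2.05, 0.810 and 1.76 FPKM in MI, and Tfec did not exceed 0.573 FPKM in any mouse.

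Substrates and partners were also read. Cd74, the invariant chain that cathepsin S cuts, stood at 29.3 to 32.6 FPKM in sham and at 156, 32.8 and 121 FPKM in MI, with no overlap and a log2 fold change of 1.46 (SE 0.48, adjusted p = 0.108, limma). Grn, the progranulin precursor that cathepsins cleave to granulins, stood at 5.68 to 7.47 FPKM in sham and at 23.0, 7.92 and 16.7 FPKM in MI. Collagen substrates had larger log2 fold changes than any cathepsin. Col1a1 stood at 17.1 to 23.0 FPKM in sham and at 768, 40.5 and 569 FPKM in MI, with a log2 fold change of 3.69 (SE 0.93, adjusted p = 0.108, limma). Col1a2 stood at 9.32 to 11.6 FPKM in sham and at 289, 19.1 and 220 FPKM in MI. Eln, which encodes the elastin that cathepsins K and S cut, stood at 4.33 to 6.79 FPKM in sham and at 198, 20.4 and 214 FPKM in MI. In MI replicate 2 Eln was thus 3.71 times its sham mean, while no cathepsin there exceeded 1.42 times. Of the list of 13 substrates and partners, 8 passed the filter and 6 of these were higher by the unadjusted criterion, beside 17.8% of all tested genes. Among the 8, Neu1, Glb1, Psap and Grn are also in the hydrolase list and Col1a1 is also a fibroblast marker. Of the 8, 7 rose without MI replicate 2 at an adjusted p under 0.05 by limma, beside 57.0%.

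**Figure D4:**
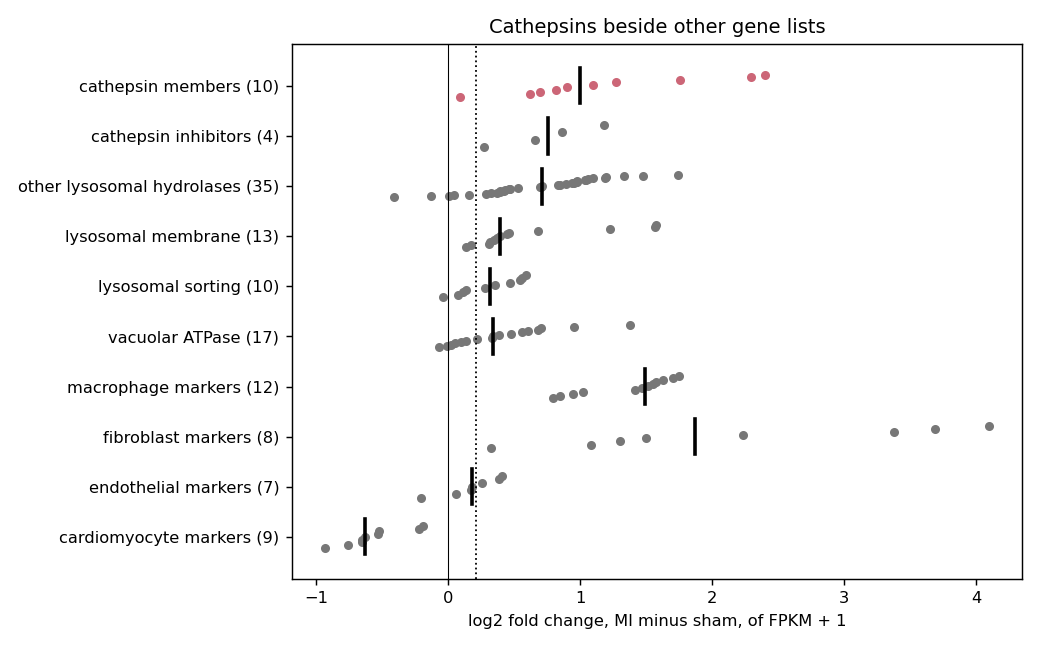
Log2 fold change (MI minus sham, of FPKM + 1, all 7 mice) of each tested gene in 10 lists, with the number of genes in brackets, a black bar at each list's median and a dotted line at the median of all tested genes (0.21). The cathepsins, in red, spread from 0.09 to 2.40. Their median of 1.00 lies above those of the lysosomal membrane list (0.39), the other hydrolases (0.71) and the inhibitors (0.76). It lies below those of the macrophage markers (1.49, with Fcgr1 included) and the fibroblast markers (1.87).

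Markers of other cells differed in the same mice. Of 12 macrophage markers, Fcgr1 passed the filter only through the MI mice, and the other 11 were all higher by the unadjusted criterion, beside 17.8% of all tested genes. The summed level of the 12 was 222 to 280 FPKM in the sham mice and 1450, 268 and 1242 FPKM in the MI mice. Among them Lyz2 was 6.38, 1.07 and 5.53 times its sham mean in MI replicates 1 to 3, C1qb 5.74, 1.07 and 4.97 times, C1qa 5.14, 0.998 and 4.23 times, and C1qc 4.98, 0.971 and 4.17 times. Over the 11 markers the ratio to the sham mean ran from 2.79 (Mertk) to 7.09 (Cd14) in MI replicate 1, from 0.971 (C1qc) to 1.38 (Mertk) in MI replicate 2 and from 1.99 (Mrc1) to 7.14 (Cd14) in MI replicate 3. Fcgr1, low in sham at 0.525 to 0.772 FPKM, was at 7.82, 1.09 and 5.73 FPKM in the MI mice. Ctsz, at 6.31, 1.14 and 5.87 times, lay within the ranges of the 11 markers in every MI mouse. So did Ctsh, at 4.67, 1.28 and 3.72 times, and Ctsc, at 3.88, 1.17 and 2.75 times. Ctsd, at 1.92 times in MI replicates 1 and 3, lay below the lowest marker in each, and Ctsk and Ctss lay above the highest of the 11 in both. These 11 rose without MI replicate 2 at an adjusted p under 0.05 by limma, beside 57.0% of all tested genes. Of 8 fibroblast markers, 7 were higher by the unadjusted criterion, beside 17.8% of all tested genes, and the sum was 129 to 150 FPKM in sham and 2221, 235 and 1725 FPKM in MI, led by Col3a1, Col1a1, Dcn and Lum. Dcn, at 4.38, 1.33 and 4.03 times its sham mean, and Lum, at 9.26, 1.52 and 8.17 times, were above their sham means in MI replicate 2 as well. All 8 fibroblast markers rose at an adjusted p under 0.05 by limma without MI replicate 2, beside 57.0% of all tested genes. Of 7 endothelial markers, 0 were higher and 0 lower by the unadjusted criterion with all mice, beside 17.8% and 4.80% of all tested genes, with a sum of 126 to 146 FPKM in sham and 155, 118 and 168 FPKM in MI. Cdh5, Tie1, Kdr and Pecam1 led this list, with log2 fold changes of 0.06, 0.19, -0.20 and 0.41, and of 0.20, 0.33, -0.19 and 0.65 without MI replicate 2. Kdr lay lower in every MI mouse than in every sham mouse, at 18.1 to 21.5 FPKM in sham and at 17.7, 16.5 and 16.4 FPKM in MI. Of the 7 endothelial markers, 5 rose without MI replicate 2 at an adjusted p under 0.05 by limma, Pecam1 by 0.65 (adjusted p = 0.000277) and Erg by 0.38 (adjusted p = 0.000725) among them, beside 57.0% of all tested genes. Their median log2 fold change with all mice was 0.19, and it turned to -0.07 with median log-ratio scaling.

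Markers of cardiomyocytes were abundant in every mouse, with summed levels of 13716 to 15032 FPKM in sham and 9106, 13782 and 9662 FPKM in MI, and 6 of 9 were lower by the unadjusted criterion, against 4.80% of all tested genes. Actc1, Myh6, Myl3 and Myl2, all proteins of the sarcomere, led them. Of these, Myl3 and Myl2 passed the criterion, and Actc1 and Myh6 did not. Myh6 was 0.478, 1.00 and 0.564 times its sham mean in MI replicates 1 to 3, and Actc1 was 0.846, 0.956 and 0.822 times. All 9 fell without MI replicate 2 at an adjusted p under 0.05 by limma, beside 14.7% of all tested genes. In whole tissue, fewer cells of a type and less RNA per cell cannot be told apart. The part of these cell markers in the cathepsin levels was not tested.

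Markers of the other cells known for single cathepsins were low in the sham mice and in MI replicate 2. Of 7 neutrophil markers 0 passed the filter, with sums of 0.300 to 1.29 FPKM in sham and 14.2, 0.485 and 7.37 FPKM in MI, and Ly6g was listed at 0 in every mouse. S100a9, S100a8, Csf3r and Retnlg led this list, and S100a9 reached 7.69 FPKM in MI replicate 1. Lymphocyte markers summed to 0.572 to 0.765 FPKM in sham and to 25.2, 0.864 and 4.90 FPKM in MI, and in MI replicate 1 Cd79a of B cells made up 16.9 FPKM of this. Mast cell markers summed to 2.01 to 3.84 FPKM in sham and to 7.16, 3.48 and 4.63 FPKM in MI. Of 7 genes associated with the osteoclast, the cell best known for Ctsk, Calcr was listed at 0 in every mouse and 0 passed the filter. Acp5, the tartrate-resistant acid phosphatase, led that list, at 0.128 to 0.201 FPKM in sham and at 5.36, 0.306 and 5.15 FPKM in MI, and Mmp9 was at 0.222 to 0.406 FPKM in sham and at 1.43, 0.101 and 0.591 FPKM in MI.

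The genes whose log2 levels were most like each cathepsin over the 7 mice are named as a description. For every cathepsin but Ctsf the 7 points were 2 high mice, MI replicates 1 and 3, and 5 low ones, a pattern that many other genes shared. For Ctsz they were S100a11 and Fcgr3, at a Pearson r of 0.9999 and 0.999 over 7 mice. For Ctsk they were Tmed3 and Tbx18, and for Ctss Il16 and Gmcl1, with r of 0.999 or more. Ctsb was most like Sod3 and Selenon, Ctsd like Ptpra and Chic2, Ctsl like Itgb2 and Picalm, Ctsa like Xab2 and Stx5a, Ctsc like Traf6 and Cbfb, and Ctsh like Scap and Cmas. S100a11 stood at 19.3 FPKM in the sham mean and at 128, 21.96 and 117 FPKM in the MI mice, close to Ctsz in level as well as in pattern. Ctsf had no such match, its highest r being 0.966 with Hecw2, and among the family its r with the other 9 ran from 0.224 with Ctsb to 0.356 with Ctsl. Between the other 9 cathepsins r ran from 0.965 for Ctsc and Ctsd to 0.998 for Ctss and Ctsz.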

How the data were processed

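RNA from the myocardial tissue of 7 mice was sequenced, 1 library for each mouse, and the libraries were grouped by the treatment label. The authors deposited FPKM values for 56980 genes, normalized by gene length and library size, and no value column was left unused (0 unused columns). The submitters' processing notes name CASAVA 1.8, HISAT2, SAMtools 1.3.1, edgeR and mm10 without saying what each did. The annotation, the counting program and the use of strand are not given in the sources used here. Splitting of reads between overlapping genes can therefore change the values of Ctsa, Ctsb, Ctsd and Ctsl.

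Gene symbols and positions came from GENCODE M21 (GRCm38, the same assembly as mm10), which held 52073 of the gene identifiers (91.4%). Whole fragments behind the FPKM values were recovered by searching gene lengths from 20 to 120000 bases until every mouse came within 0.05 of a whole number. The lengths so implied equalled the GENCODE M21 exon length for Ctsk (1512 bases) and Ctsz (1441 bases) but not for the other 8 members, so FPKM levels between genes depend on lengths of another source. The recovered fragments give the depth behind each value, and the SD covers counting error and the difference between mice.

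For genes reaching an FPKM of 1 in 3 or more mice, limma 3.58.1 under R 4.3.3 (lmFit, eBayes with trend) compared log2(FPKM + 1) between the groups without covariates, with Benjamini-Hochberg adjustment at 0.05. A second criterion was an unadjusted p of 0.05 with a log2 fold change of 0.5. The scripts for this step were tested on simulated data. Single genes were compared by exact two-sided permutation over 35 splits, p being 2 times the smaller tail. Tables and plots were made with matplotlib 3.10.9, NumPy 2.4.6, pandas 2.3.3 and Python 3.11.15.

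The cathepsins and the gene lists were chosen with earlier results of these data known. Some genes stand in several lists, so the counts of different lists are not independent. The text names all cathepsins above 0, up to 4 genes of each list with the highest mean FPKM, the partners Cst3, Cstb, Lgmn, Neu1, Glb1, Cd74, Grn, Igf2r, M6pr and Tfeb, and 2 most similar genes for each member. Some genes that the rule covers are left out, and Gnptab, Gnptg, Ly6g, Calcr, Mertk, Fcgr1, Mrc1, Cd14 and Erg, outside it, were chosen after their values were seen. Alternatives tried were TPM, a filter on the mean or none, a pseudocount of 0.1, median log-ratio scaling, quantile normalization, limma without the trend, sample weights, a replicate block and each mouse left out.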

Additional observations from a re-analysis of the deposited data

Results flagged for a closer look

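In a group of 4 mice, 1 mouse was taken as far from the others when its gap to the nearest, as a share of the group's range, exceeded Dixon's critical value. Of 47 sets of sham values examined, 2 were so marked, where chance gives about 1 in 20 sets (2.35 expected). The first was the summed FPKM of the 10 cathepsins, where sham replicate 1 lay above the other sham mice with a gap of 0.879 of the range (363 against 354, 354 and 355 FPKM). The second was the level of Ctsh minus the mean of the other 9 cathepsins on the log2 scale, where sham replicate 2, at -1.79, lay above the other sham mice (-2.02, -2.02 and -1.99) with a gap of 0.865 of the range. The MI group, with 3 mice, was not examined in this way.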

How the results depend on the processing

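The number of cathepsin genes higher at an adjusted p under 0.05 was 0 with all mice, with 9 at an unadjusted p under 0.05 by limma, and became 9 with sample weights, where 66.8% of all tested genes were called higher. Leaving out 1 mouse gave 0 to 9, the 9 being without MI replicate 2, beside 57.0% of all tested genes. The weights put nearly all of the MI weight on MI replicate 3 and their estimate stopped before it converged, so this count rests on 1 mouse. The number lower stayed at 0 under every setting run. By the unadjusted criterion the count was 9, and it was 7 with median log-ratio scaling and quantile normalization (9.39% and 8.81% of all tested genes). With these scalings the log2 fold changes of Ctsa (0.44 and 0.47) and Ctsd (0.35 and 0.49) fell under the line of 0.5. When 1 mouse was left out the count ran from 4 (without MI replicate 1 or without MI replicate 3, 5.57% and 5.6%) to 9 (without MI replicate 2, 35.05%). The number with every MI mouse above every sham mouse was 7 and ran from 7 to 9 when 1 mouse was left out, beside 16.9% to 61.9% of all tested genes. The direction of Ctsf turned, from 0.09 to -0.13 with median log-ratio scaling, -0.19 with quantile normalization and -0.016 with sample weights. The other 9 cathepsins kept their direction under every setting run. Replicate numbers come from the sample titles and nothing ties them to a litter or day. Deviations of same-numbered mice from their group means had correlations of 0.07, -0.02 and -0.08. In the MI group the gap between MI replicate 2 and the others weighs heavily in these deviations, so they cannot decide whether mice were paired. With a replicate block 0 cathepsin genes were higher at an adjusted p under 0.05, 0 lower and 8 higher by the unadjusted criterion (13.4% of all tested genes). The fewest fragments behind a cathepsin value were 96, for Ctsk. The tests with all mice rest on 3 MI mice, of which 1 lay near sham.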
